A study of Mus musculus with 2 samples.

Results

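Glycolysis and hypoxia response genes were followed through the cell types of denervated mouse muscle. The 35 genes were chosen by name, with earlier results of these data known. They were read from 36 rows of the 32287 features counted in each library. They comprise glucose transporters (*Slc2a1*, *Slc2a3*), hexokinases (*Hk1*, *Hk2*, *Hk3*), enzymes and regulators of the steps from glucose phosphate to pyruvate (*Gpi1*, *Pfkl*, *Pfkp*, *Pfkfb3*, *Pfkfb4*, *Aldoa*, *Aldoc*, *Tpi1*, *Gapdh*, *Pgk1*, *Pgam1*, *Eno1*, *Pkm*), genes of lactate and pyruvate use (*Ldha*, *Slc16a3*, *Pdk1*), the oxygen-sensing pathway (*Hif1a*, *Egln1*, *Egln3*) and 11 hypoxia targets (*Bnip3*, *Hilpda*, *Vegfa*, *Adm*, *Ndrg1*, *Ankrd37*, *P4ha1*, *P4ha2*, *Mif*, *Higd1a*, *Ddit4*). Each symbol had 1 row except *Aldoa*, whose second identifier held 5 UMIs in IgG and 6 in SPP1-nAb and was added to the first.

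The libraries came from *S100GFP*-tg mice of the strain labelled C57BL/6J, 10 to 16 weeks old, in which an S100B promoter drives GFP in Schwann cells. Both groups had bilateral crush of the peroneal nerve and were examined 7 days post-injury (dpi). In the IgG group, 10 μL with 2 μg of goat anti-mouse IgG was injected into the tibialis anterior (TA) every 2 days, and in the SPP1-nAb group an antibody that neutralizes SPP1, the secreted protein osteopontin, was given at the same dose and schedule. Each condition was 1 library made with the 10X droplet system, and the number of mice in each is not given in the sources used here, so there was no replicate check. The titles name GFP-positive cells and the protocol sorted GFP-positive and GFP-negative live cells, whereas glial cells made up 1.72% of the IgG cells kept and 1.73% of the SPP1-nAb cells kept. The comparisons asked in which cell types these genes are most abundant and where the levels differed between the antibody treatments.

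Glycolysis splits glucose into pyruvate, with a small yield of ATP that needs no oxygen, and lactate dehydrogenase and the lactate exporter MCT4 (*Slc16a3*) dispose of the end product. When oxygen is scarce, the prolyl hydroxylases encoded by the *Egln* genes no longer mark the alpha subunit of hypoxia-inducible factor (HIF, *Hif1a*) for destruction, and the factor binds DNA at a short core motif and raises transcription of many glycolytic genes, of *Vegfa* and of the hydroxylases themselves. HIF activity is set mainly at the protein level, which was not measured here. Neutrophils and inflammatory macrophages are known to draw much of their energy from glycolysis, and inflammatory stimuli can also raise *Hif1a* transcripts.

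Counts were available for 23779 barcodes and 97607674 UMIs in IgG and for 25069 barcodes and 127719916 UMIs in SPP1-nAb, and 163 barcodes occurred in both libraries. Cells were required to show over 200 genes, and mitochondrial UMIs had to stay under 10% of the total (23385 and 24758 cells kept, with medians of 3822 and 4756 UMIs). A cell was placed in a lineage when at least 3 of the 8 markers of that lineage were detected, 2 more than of any other. This rule placed 81.5% and 84.8% of the cells, and 4.88% and 4.60% were set aside as mixed. All 8 markers of each of the 13 lists were at least 1.5-fold higher in their class than in the other cells in both libraries. The same markers placed the cells, so this describes the classes and is not a separate check of them. No member was a marker. The classes compared were inflammatory phagocytes (*Arg1*, *Cxcl3*, *Il1a*, *Inhba*, *Clec4e*, *Ptgs2*, *Il1rn*, *Thbs1*; 1882 and 3510 cells), neutrophils (533 and 1218), stromal cells, which are fibroblasts, fibro-adipogenic progenitors and tenocytes (2967 and 1365), and glial cells (403 and 428). In this order median depths were 4742, 1250, 4802 and 2809 UMIs in IgG and 5462, 1399, 7196 and 3294 in SPP1-nAb.

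The promoters of 5 members, each at the top of a different class or pathway step below, are shown with their HIF core motifs, from 1 to 4 in each. The sequences are the 250 bases before the start site from RefSeq on GRCm38.p6, written 5′ to 3′ along the gene, and capitals mark ACGTG or GCGTG or their reverse complements CACGT and CACGC.
*Slc16a3* (lactate exporter, highest in neutrophils), chr11:120948817-120949066, plus strand: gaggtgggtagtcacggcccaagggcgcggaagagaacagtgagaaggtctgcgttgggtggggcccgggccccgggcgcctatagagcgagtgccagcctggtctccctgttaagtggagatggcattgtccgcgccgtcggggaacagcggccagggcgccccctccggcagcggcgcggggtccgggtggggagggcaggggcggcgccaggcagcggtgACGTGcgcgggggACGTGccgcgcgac
*Ankrd37* (ankyrin repeat protein, highest in neutrophils), chr8:45999851-46000100, minus strand: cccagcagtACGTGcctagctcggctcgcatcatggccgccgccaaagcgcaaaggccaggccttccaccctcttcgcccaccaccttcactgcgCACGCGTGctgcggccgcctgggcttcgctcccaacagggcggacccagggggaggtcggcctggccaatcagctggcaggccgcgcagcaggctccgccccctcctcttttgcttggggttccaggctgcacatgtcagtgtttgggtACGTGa
*Pgk1* (phosphoglycerate kinase, highest in inflammatory phagocytes), chrX:106186850-106187099, plus strand: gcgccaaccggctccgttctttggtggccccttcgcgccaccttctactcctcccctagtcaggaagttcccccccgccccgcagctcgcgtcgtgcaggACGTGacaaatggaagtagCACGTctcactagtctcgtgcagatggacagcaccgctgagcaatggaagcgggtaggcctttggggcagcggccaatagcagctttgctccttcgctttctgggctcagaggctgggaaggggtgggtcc
*Adm* (adrenomedullin, highest in stromal cells), chr7:110627407-110627656, plus strand: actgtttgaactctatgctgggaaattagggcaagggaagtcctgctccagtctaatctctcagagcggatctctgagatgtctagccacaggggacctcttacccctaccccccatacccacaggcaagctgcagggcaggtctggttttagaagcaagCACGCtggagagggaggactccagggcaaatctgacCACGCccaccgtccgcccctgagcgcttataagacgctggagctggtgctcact
*Pfkfb4* (regulator of phosphofructokinase, highest in glial cells), chr9:108991652-108991901, plus strand: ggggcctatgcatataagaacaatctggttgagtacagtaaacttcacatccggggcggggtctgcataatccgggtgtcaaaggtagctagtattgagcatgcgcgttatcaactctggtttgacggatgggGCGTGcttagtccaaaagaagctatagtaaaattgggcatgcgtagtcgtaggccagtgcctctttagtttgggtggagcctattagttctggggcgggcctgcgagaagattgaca

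Over windows of 300 bases, from 250 before to 50 after a start site, 31 of the 33 members with a window held at least 1 core motif on either strand (93.9%), against 46.7% of 27025 genes, and 75.8% of members against 22.9% of genes held at least 2. *Slc2a3* and *Ndrg1* had no window. The core motif contains CG, and the member windows were richer in G and C (median 64.3%) than all windows (52.7%), whose part in the difference was not tested. The 5 printed promoters held 2 motifs in *Slc16a3*, 4 in *Ankrd37*, some of them overlapping, 2 in *Pgk1*, 2 in *Adm* and 1 in *Pfkfb4*. A match describes letters and not a bound site.

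Levels are given as CPM, the UMIs of a gene per 1000000 UMIs summed over the cells of a class, IgG first and SPP1-nAb second, with 95% Poisson intervals in brackets. These intervals, and those of ratios and shares below, cover counting error only. On this scale the 35 members together made up 5702 and 5540 CPM in inflammatory phagocytes, 4098 and 4796 in neutrophils, 2547 and 3021 in stromal cells and 2115 and 2129 in glial cells. The 4 classes kept this order in both libraries, but they did not differ by a common factor: among the 4, 16 members were highest in inflammatory phagocytes, 7 in neutrophils, 4 in stromal cells and 5 in glial cells in both libraries, and *Hk1*, *Aldoa* and *Pkm* changed place. The highest class stood apart from the next, with intervals that did not overlap in either library, for 23 members: 12 of those highest in inflammatory phagocytes, 5 in neutrophils, all 4 in stromal cells and 2 in glial cells. Neither count was made over all genes, and intervals are narrower in classes with more UMIs. The counts thus describe these members and do not set them apart from other genes.

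**Figure D1:**
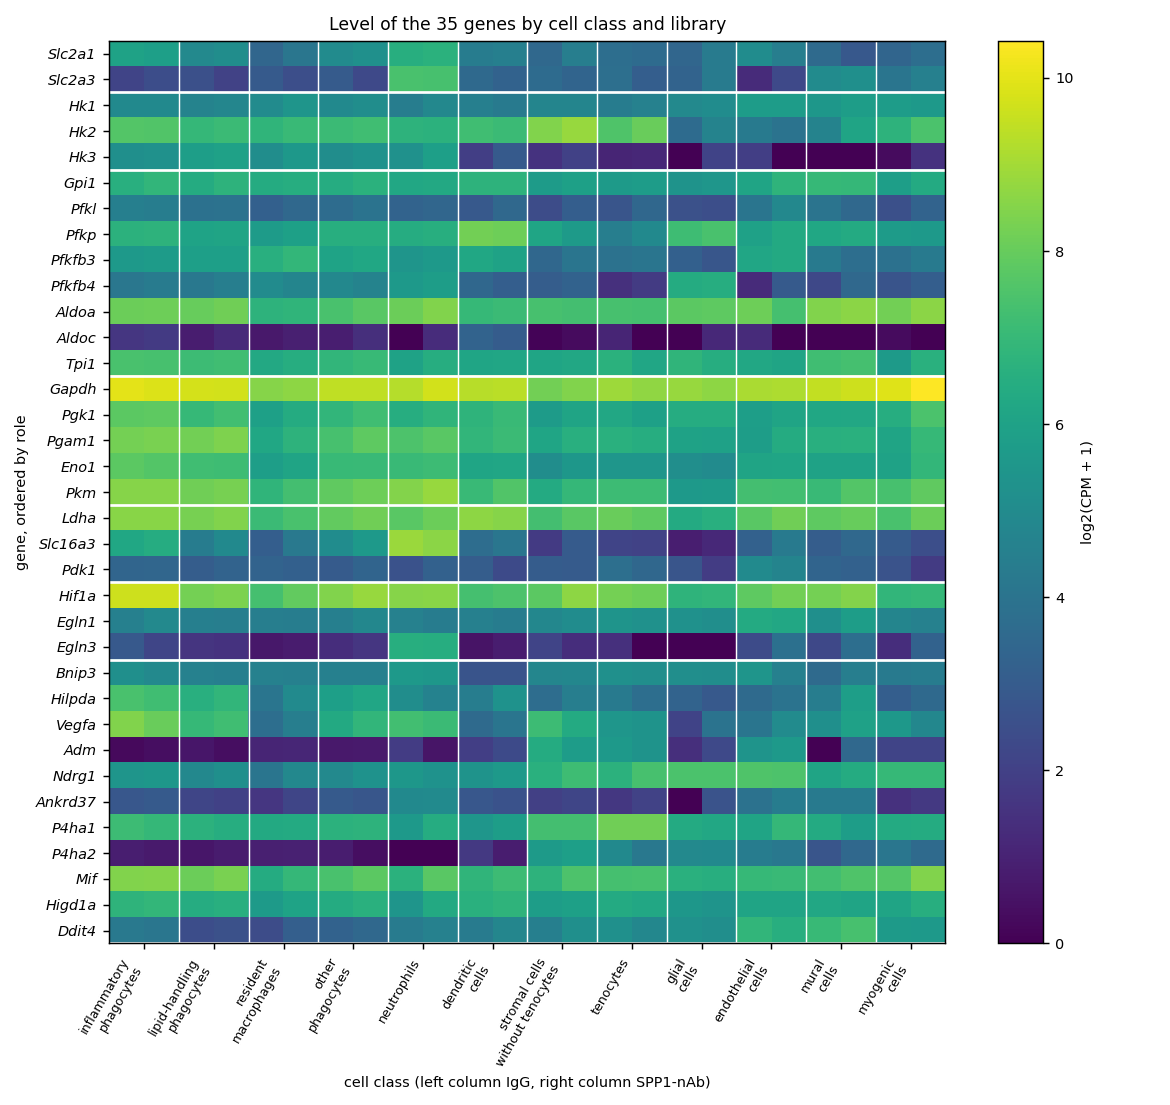
Level of the 35 members (rows, ordered by role with white lines between roles) in 12 cell classes (columns, IgG on the left and SPP1-nAb on the right of each pair), as color on the scale log2(CPM + 1). Neutrophils are the brightest class for *Slc2a3*, *Slc16a3* and *Egln3*, inflammatory phagocytes for *Hif1a*, *Vegfa* and *Hilpda*, and stromal cells without tenocytes for *Hk2*, while *Gapdh* is bright throughout.

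Glucose uptake and the first phosphorylation were divided between the classes. *Slc2a3* encodes GLUT3, a transporter of high affinity, and stood at 170 CPM [142 to 201] and 167 [150 to 186] in neutrophils, against 3.36 and 4.51 in inflammatory phagocytes, 11.7 and 9.05 in stromal cells and 9.04 and 19.2 in glial cells. Among the 4 classes it was highest in neutrophils in both libraries, with intervals far from those of the other classes. *Slc2a1* encodes GLUT1, the basal transporter, and measured 92.5 CPM [72.4 to 116] and 101 [88.0 to 116] in neutrophils, 62.9 and 57.7 in inflammatory phagocytes and at most 19.3 in stromal and glial cells. Of the UMIs of both transporters *Slc2a3* held 64.7% (95% exact interval 57.7 to 71.3) and 62.2% (58.0 to 66.3) in neutrophils, but 5.08% and 7.25% in inflammatory phagocytes. The sum of both was 262 and 268 CPM in neutrophils and 66.2 and 62.2 in inflammatory phagocytes. *Slc2a3* held 52.0% and 31.9% of these UMIs in stromal cells and 47.8% and 50.0% in glial cells.

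Of the hexokinases, which trap glucose in the cell, *Hk2* is the inducible form, *Hk1* the housekeeping form and *Hk3* a form of myeloid cells. *Hk2* was highest in stromal cells, at 331 CPM [322 to 340] and 420 [407 to 433], followed by inflammatory phagocytes (197 and 195), neutrophils (107 and 103) and glial cells (11.5 and 24.5). It made up 92.4% and 93.8% of the hexokinase UMIs of stromal cells and 28.6% and 40.2% of those of glial cells, in which *Hk1* held 71.4% (56.7 to 83.4) and 54.3% (43.6 to 64.8). The level of *Hk1* itself hardly varied, between 20.6 and 33.1 CPM over the 4 classes. *Hk3* took 22.7% and 30.6% of the hexokinase UMIs of neutrophils, 13.7% and 14.5% in inflammatory phagocytes and less than 1% in stromal cells (0.498% and 0.606%). In glial cells there were 0 and 5 *Hk3* UMIs.

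The 10 enzymes that carry glucose phosphate to pyruvate in these lists (*Gpi1*, *Pfkl*, *Pfkp*, *Aldoa*, *Tpi1*, *Gapdh*, *Pgk1*, *Pgam1*, *Eno1*, *Pkm*) summed to 2792 and 2725 CPM in inflammatory phagocytes, 1886 and 2392 in neutrophils, 1214 and 1169 in glial cells and 932 and 1043 in stromal cells. *Gapdh*, the oxidizing step, was the largest part, at 1010 CPM [990 to 1031] and 929 [916 to 943] in inflammatory phagocytes and 319 and 362 in stromal cells. *Pgk1*, the first step that makes ATP, measured 222 and 227 CPM in inflammatory phagocytes, 89.9 and 112 in neutrophils, 87.1 and 86.0 in glial cells and 54.1 and 66.9 in stromal cells. Its inflammatory level lay above every interval of the other classes. *Eno1* (224 and 196 against 134 and 143 in neutrophils) and *Pgam1* (307 and 318 against 182 and 218) had the same order at the top. Lipid-handling phagocytes, a subclass described below and outside the classes compared here, had *Pgam1* at 296 CPM in IgG and 337 in SPP1-nAb. Their *Pgam1* level was thus close to the inflammatory level in IgG and above it in SPP1-nAb. Their *Eno1* level was lower than the inflammatory level, at 149 and 144. *Pkm*, the last step, was nearly level between inflammatory phagocytes and neutrophils in IgG (365 and 360) and higher in neutrophils in SPP1-nAb (369 and 452). Several of these genes, *Gapdh*, *Pgk1*, *Eno1*, *Pgam1* and *Aldoa* among them, have near-identical processed copies in the mouse genome, so that their counts are less certain than those of the other members.

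*Pfkp*, the platelet form of phosphofructokinase, was highest in glial cells (146 and 172 CPM) and gave 82.8% and 83.7% of the *Pfkl* and *Pfkp* UMIs in inflammatory phagocytes and 96.7% and 97.4% in glial cells. The bifunctional enzymes *Pfkfb3* and *Pfkfb4* set the level of an activator of phosphofructokinase. *Pfkfb4* stood at 84.7 CPM [69.1 to 103] and 89.3 [74.9 to 106] in glial cells, 47.5 and 54.8 in neutrophils, 16.6 and 19.4 in inflammatory phagocytes and 6.88 and 7.74 in stromal cells. It held 91.2% (84.3 to 95.7) and 93.8% (88.5 to 97.1) of the UMIs of this pair in glial cells, against 25.5% and 27.2% in inflammatory phagocytes. The glial cells were thus the class in which the balance of the pair was turned furthest to *Pfkfb4*. *Aldoa* gave at least 99.1% of aldolase UMIs in each class, and *Aldoc* did not pass 2.40 CPM in any of the 4.

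At the end of the pathway, *Ldha*, which turns pyruvate into lactate, was highest of the 4 classes in inflammatory phagocytes (379 and 382 CPM) and lowest in glial cells (81.4 and 95.2). Dendritic cells, outside the 4 classes, had 399 and 373 CPM of *Ldha*. *Slc16a3*, the exporter that follows it, had another order: 468 CPM [421 to 518] and 395 [369 to 424] in neutrophils, 73.2 and 86.0 in inflammatory phagocytes, 2.48 and 6.43 in stromal cells and 0.822 and 1.32 in glial cells, where the values rest on 1 and 2 UMIs. With all cells thinned to 500 UMIs, 21.9% and 19.1% of neutrophils would carry a *Slc16a3* UMI, 3.82% and 4.52% of inflammatory phagocytes, and 0.0777% and 0.0720% of glial cells (median depths 1250 and 1399 UMIs in neutrophils and 2809 and 3294 in glial cells). Without thinning the shares were 41.8% and 41.5% of neutrophils and 0.248% and 0.467% of glial cells. *Pdk1*, the kinase that holds pyruvate back from the mitochondrion, was low throughout, between 2.65 and 9.75 CPM.

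**Figure D2:**
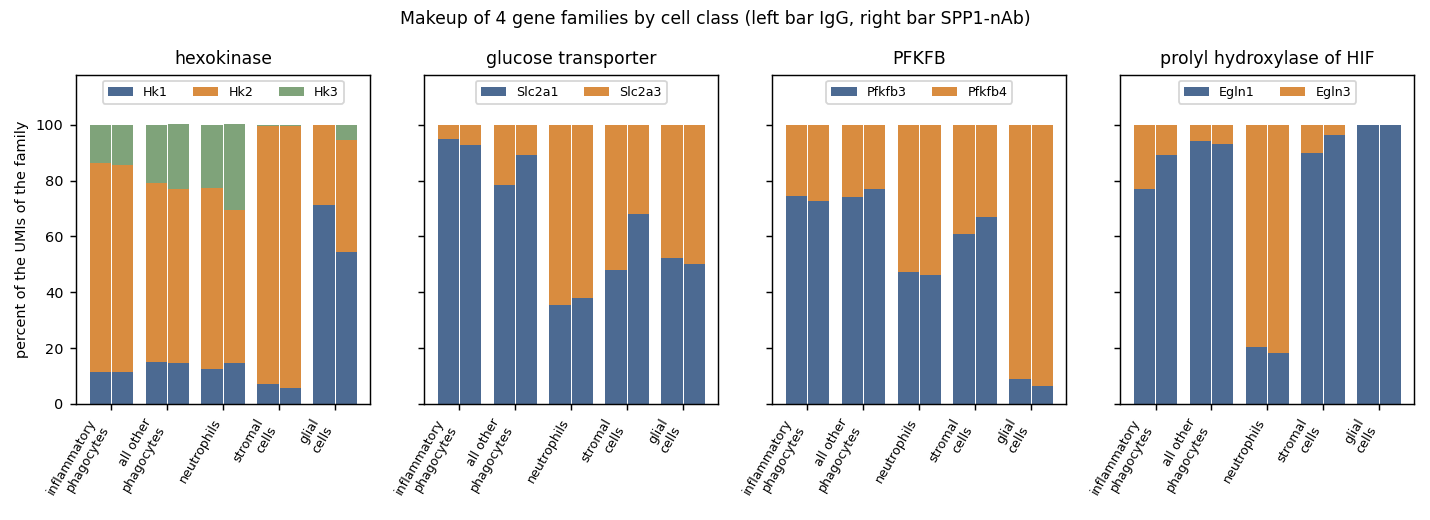
Share of each gene in the UMIs of its family (vertical axis, percent, stacked to 100) for the hexokinases, glucose transporters, *Pfkfb3* with *Pfkfb4*, and *Egln1* with *Egln3*, in 5 classes with IgG as the left and SPP1-nAb as the right bar. Neutrophils stand apart by *Egln3* (79.8% and 81.9%), stromal cells by *Hk2* (92.4% and 93.8%) and glial cells by *Pfkfb4* (91.2% and 93.8%). The *Slc2a3* share is also largest in neutrophils (64.7% and 62.2%), but less far from glial cells and, in IgG, stromal cells.

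Among the oxygen-sensing genes, *Hif1a* was highest in inflammatory phagocytes, at 794 CPM [776 to 812] and 791 [779 to 804], followed by neutrophils (367 and 379), stromal cells (234 and 380) and glial cells (108 and 114). *Egln1* encodes PHD2, the main oxygen sensor, and was nearly even, between 20.1 and 37.8 CPM. *Egln3* encodes PHD3, a hydroxylase that is itself a HIF target, and was a neutrophil transcript: 91.2 CPM [71.2 to 115] and 90.6 [78.0 to 105] against 6.62 and 3.48 in inflammatory phagocytes and 3.25 and 1.31 in stromal cells. No *Egln3* UMI was found in glial cells, where the limit that a count of 0 allows is 2.47 and 1.98 CPM. *Egln3* held 79.8% (69.9 to 87.6) and 81.9% (76.2 to 86.7) of the *Egln1* and *Egln3* UMIs of neutrophils and at most 23.1% in the other 3 classes. In IgG, 45.1% of the 71 neutrophil *Egln3* UMIs came from 10 cells, and in SPP1-nAb 19.5% of 185.

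The 11 hypoxia targets did not share a class. *Vegfa*, the endothelial growth factor, measured 352 CPM [340 to 364] and 267 [260 to 274] in inflammatory phagocytes, 154 and 137 in neutrophils, 132 and 74.5 in stromal cells and 3.29 and 14.6 in glial cells. *Hilpda*, an inhibitor of lipid breakdown on lipid droplets, was 172 and 151 CPM in inflammatory phagocytes and at most 33.4 in the other 3 classes. Lipid-handling phagocytes, outside these classes, were next for *Hilpda*, at 94.4 CPM in IgG and 116 in SPP1-nAb, so a high level was not particular to inflammatory phagocytes. *Vegfa* and *Hilpda* were unevenly spread within the inflammatory class. The tenth of its cells with most UMIs of the gene held 47.9% and 48.6% of *Vegfa* and 66.0% and 64.5% of *Hilpda* UMIs. For *Hif1a* the shares in this class were 30.0% and 28.6%. *Mif*, a cytokine, and *Higd1a*, a small mitochondrial protein, were also highest there (354 and 358 CPM, and 109 and 120). Next for *Mif*, outside these classes, were lipid-handling phagocytes in IgG (271) and myogenic cells in SPP1-nAb (348).

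*Adm*, a vasodilator peptide, was highest in stromal cells among the 4 classes, at 79.7 CPM [75.3 to 84.2] and 51.8 [47.4 to 56.4], with 1 to 6 UMIs in each of the other 3 classes and library. Endothelial cells, outside these 4, were at 40.8 CPM [27.4 to 58.7] and 49.1 [34.6 to 67.7], so that in SPP1-nAb the intervals of stromal and endothelial cells overlapped. The collagen prolyl hydroxylase subunits divided as well. *P4ha1* was present throughout (171 and 179 CPM in stromal cells, 141 and 122 in inflammatory phagocytes, 83.0 and 76.1 in glial cells, 47.5 and 86.6 in neutrophils), whereas *P4ha2* was 48.5 and 52.1 in stromal cells, 28.8 and 29.8 in glial cells and below 1 CPM in inflammatory phagocytes, with 0 UMIs in neutrophils (limits of 3.85 and 1.47 CPM). *Ndrg1*, which is also a gene of myelinating Schwann cells, was highest in glial cells (176 and 177) and next in stromal cells (99.2 and 149). *Ddit4*, an inhibitor of mTORC1, ranged from 16.3 to 37.8 CPM, *Bnip3*, a receptor for mitophagy, from 28.0 to 48.8, and *Ankrd37* was 29.5 and 30.8 in neutrophils and at most 6.76 in the other 3 classes.

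Inflammatory phagocytes were then set against all other mononuclear phagocytes (10838 and 12582 cells), since both share a lineage. A gene was compared when it had at least 100 UMIs over the cells of both classes and counted when it was at least 2-fold higher or lower in both libraries. Of 34 members compared, 5 were higher (14.7%), *Vegfa*, *Egln3*, *Slc16a3*, *Hif1a* and *Ddit4*, where 0.806% of the 12908 genes compared were higher, and 0 members were lower where 6.04% of genes were. The median log2 ratio of the members was 0.70 in IgG and 0.42 in SPP1-nAb, against -0.23 and -0.11 over all genes, and 30 of 34 members lay above 0 in each library. *Adm*, with 90 UMIs, was not compared.

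*Vegfa* was 5.22-fold higher in IgG (log2 ratio 2.38, 95% interval 2.31 to 2.45) and 2.43-fold in SPP1-nAb (1.28, 1.23 to 1.33). *Slc16a3* was 3.82-fold (1.93, 1.79 to 2.08) and 2.63-fold higher (1.40, 1.31 to 1.49), and *Hif1a* 3.00-fold (1.58, 1.54 to 1.63) and 2.29-fold (1.20, 1.17 to 1.23). *Ddit4* (3.00-fold and 2.25-fold) and *Egln3* (4.98-fold and 2.08-fold) rest on fewer UMIs, with 63 and 71 *Egln3* UMIs in the inflammatory cells, and both fall under 2-fold in SPP1-nAb (log2 ratios 0.82 and 0.68) when the known hypoxia-responsive genes *Arg1* and *Ptgs2* are left out of the class markers. Past 2-fold in IgG alone were *Hilpda* (3.26-fold, 1.80-fold in SPP1-nAb), *Aldoc* (2.81 and 1.81), *Slc2a1* (2.78 and 1.91), *Pgk1* (2.29 and 1.67), *Eno1* (2.10 and 1.60) and *Mif* (2.10 and 1.46). The 10 enzymes together were 2792 against 1639 CPM in IgG and 2725 against 2015 in SPP1-nAb. Dissociation stress genes (*Fos*, *Jun*, *Hspa1a* and 6 more) were lower in the inflammatory cells, at 3562 against 7036 CPM and 2749 against 4316, and their part in these ratios was not tested.

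The ratios were smaller in SPP1-nAb, and the levels of the reference cells were higher there. The inflammatory level of *Vegfa* was also lower there, at 267 against 352 CPM. *Vegfa* in all other phagocytes was 67.4 CPM in IgG and 110 in SPP1-nAb, *Hif1a* 265 and 345, and *Pgk1* 96.9 and 136. Within its subclasses *Vegfa* was 125 and 150 CPM in lipid-handling phagocytes (*Gpnmb*, *Atp6v0d2* and 6 more markers), 12.5 and 21.2 in resident macrophages (*Lyve1*, *Cd209f* and 6 more) and 80.4 and 114 in phagocytes of no subclass. Numbers of cells moved as well, from 2498 to 5007 lipid-handling and from 4574 to 3386 resident cells. *Hif1a* in these subclasses was 301 and 333, 164 and 242, and 354 and 449 CPM, so that each of them was higher in SPP1-nAb for both genes. The members below 0 in both libraries were *Pfkfb3*, *Pfkfb4* and *Hk3*. *Pfkfb3* was 48.5 and 51.9 CPM in the inflammatory cells and 94.7 and 120 in resident macrophages, and *Hk3* was 36.0 and 38.2 in the inflammatory cells and 56.7 and 61.2 in the lipid-handling cells.

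**Figure D3:**
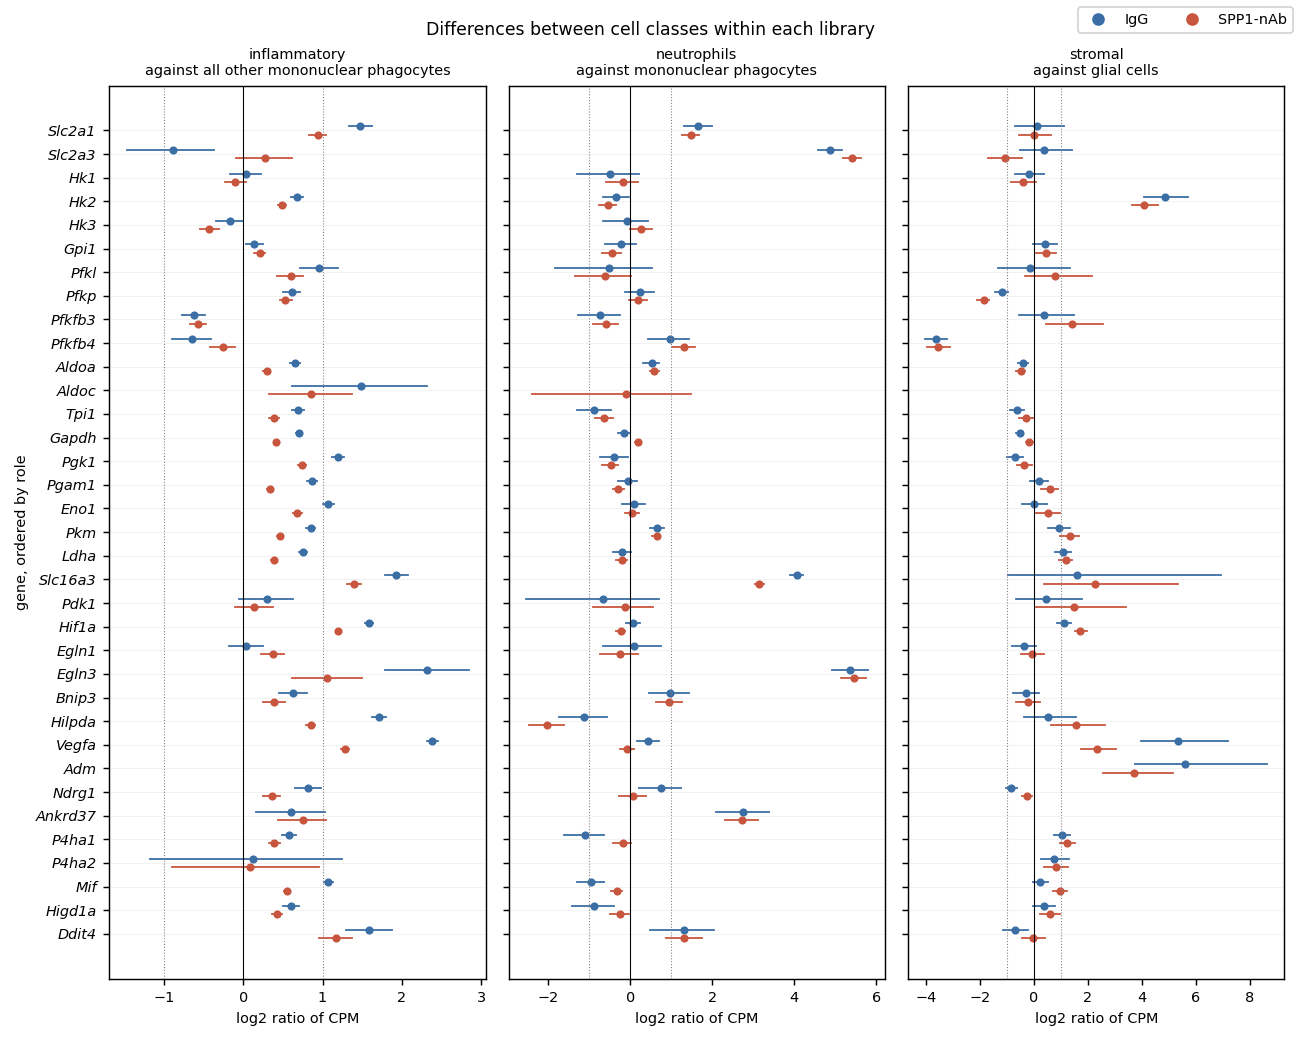
Log2 ratio of CPM (points with 95% binomial intervals, IgG and SPP1-nAb in separate colors) of each member compared, in inflammatory against all other mononuclear phagocytes, neutrophils against mononuclear phagocytes, and stromal against glial cells. Dotted lines mark 2-fold, and 5, 6 and 7 members have both points above the upper line and 0, 1 and 2 both below the lower.

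The relation was also graded within the lineage. Mononuclear phagocytes of 4000 to 8000 UMIs were grouped by how many of the 8 inflammatory markers were detected, from 0 to 5 or more. From the first to the last group, *Hif1a* went from 149 to 862 CPM in IgG and from 156 to 847 in SPP1-nAb, and the 10 enzymes together from 1207 to 3173 and from 1143 to 2906, with every step upward. *Vegfa* went from 14.4 to 468 and from 15.3 to 361 CPM, and *Hilpda* from 18.9 to 254 and from 21.2 to 217. *Hk2* was shallower, from 113 to 203 and from 119 to 203. *Pfkfb3* ran the other way, from 91.3 to 38.7 and from 110 to 44.8 CPM, downward at every step, so the slope was not common to all members. The stress genes also declined, from 8437 to 3244 and from 6832 to 2445 CPM, and median depth increased within the window, from 4771 to 5716 and from 4932 to 6084 UMIs, and the part of either was not tested. The inflammatory markers and these members are transcripts of the same cells, so the gradient is a description.

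**Figure D4:**
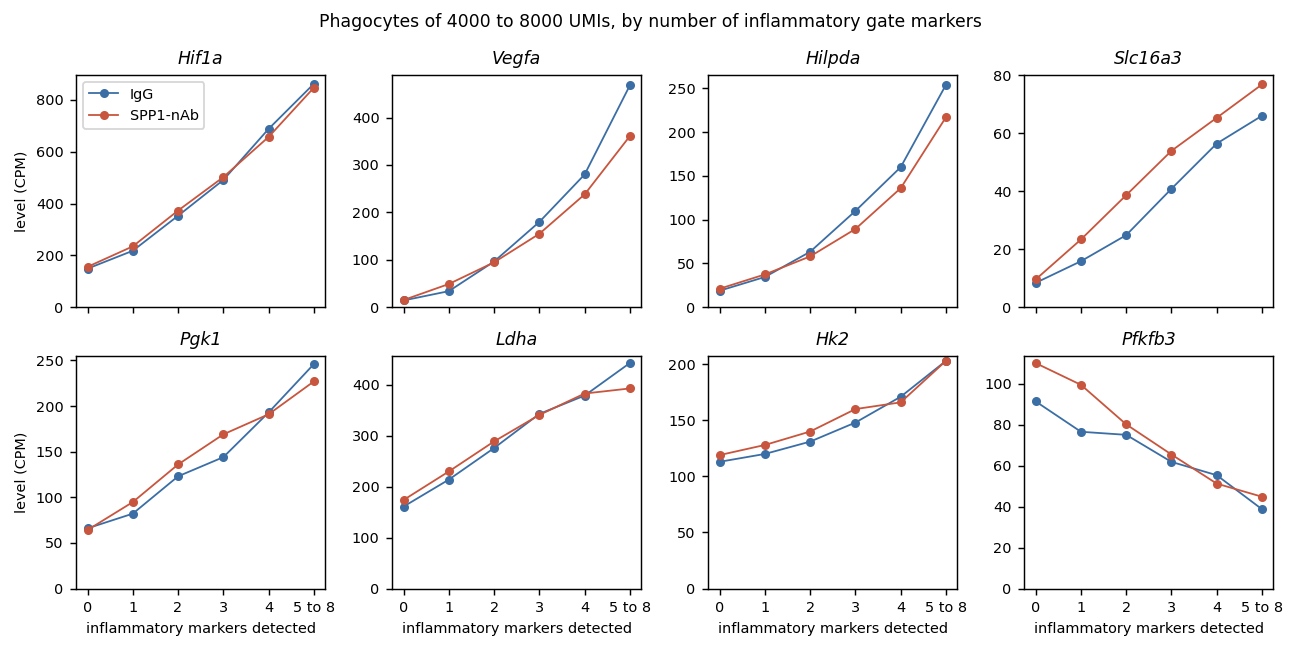
Level (vertical axes, CPM from 0) of 8 members in mononuclear phagocytes of 4000 to 8000 UMIs against the number of inflammatory markers detected (horizontal axis, 0 to 5 or more), for IgG and SPP1-nAb. *Hif1a*, *Vegfa*, *Hilpda*, *Slc16a3*, *Pgk1*, *Ldha* and *Hk2* climb with the number of markers in both libraries, and *Pfkfb3* declines from 91.3 to 38.7 CPM in IgG and from 110 to 44.8 in SPP1-nAb.

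Neutrophils against mononuclear phagocytes showed a narrow set of members far above the rest. At the same 2-fold limit 6 of 34 members were higher (background 9.75% of 13001 genes) and 1 was lower (background 19.2%). *Egln3* was 41.4-fold (log2 ratio 5.37, 4.93 to 5.80) and 43.6-fold higher (5.45, 5.15 to 5.75), *Slc2a3* 29.4-fold (4.88, 4.57 to 5.17) and 42.7-fold (5.42, 5.20 to 5.63), and *Slc16a3* 16.7-fold (4.06, 3.89 to 4.22) and 8.86-fold (3.15, 3.04 to 3.26). The prolyl hydroxylase PHD3, the transporter GLUT3 and the lactate exporter thus led, before *Ankrd37* (6.79-fold and 6.64-fold), *Slc2a1* (3.16-fold and 2.79-fold) and *Ddit4* (2.49-fold on 15 UMIs, and 2.48-fold on 47). *Hilpda* was the member that was lower, 2.17-fold and 4.11-fold (26 and 49 UMIs). *Bnip3* (1.95-fold and 1.93-fold) and *Pfkfb4* (1.94-fold and 2.46-fold) lay just under the limit, and *Hif1a* itself had log2 ratios of 0.06 and -0.23.

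The members as a whole had no common direction in neutrophils, with medians of -0.00 and -0.10 and 16 and 15 of 34 above 0. Of these 34, *P4ha2* in both libraries and *Aldoc* in IgG had 0 neutrophil UMIs and no ratio. The median over all genes was -0.41 in each library, and with ratios centred on that median 14.7% of genes were higher and 10.9% lower, 9 members were higher, with *Bnip3*, *Pfkfb4* and *Pkm* added, and *Hilpda* no longer counted as lower. Neutrophils were shallow, with 491 of 533 and 1075 of 1218 cells under 2000 UMIs. Free RNA was estimated at 7.29% and 8.39% of their UMIs, from phagocyte transcripts. In mononuclear phagocytes it was 3.08% and 4.54%, from stromal transcripts, so the measures are not alike. On the stromal transcripts neutrophils had 239 and 160 CPM and mononuclear phagocytes 75.1 and 86.4. After free RNA was subtracted the 6 members were still higher, with *Bnip3* and *Pfkfb4* added, and *Hilpda* was still lower. Without the 10% of cells with the most UMIs *Ddit4* was not counted (log2 ratio 1.00 in SPP1-nAb, just under the limit), and *Bnip3* was. Both class comparisons of the phagocytes use the inflammatory cells, so that their values are not independent: *Slc16a3* was higher in neutrophils than in all mononuclear phagocytes and, within these, higher in the inflammatory cells.

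Stromal and glial cells, the non-immune classes, differed at 9 of 31 members compared. Over both directions together this is near the share of all genes and is not a result about the members. The 7 that were higher in stromal cells (22.6%, background 15.0% of 11533 genes) were *Adm*, *Vegfa*, *Hk2*, *Slc16a3*, *Hif1a*, *Ldha* and *P4ha1*. The 2 that were lower (6.45%, background 12.3%) were *Pfkfb4* and *Pfkp*. The minimum count was met over both classes together. Stromal cells held 15699109 and 9948986 UMIs against 1216335 and 1511824 in glial cells. A gene high in stromal cells thus met the minimum more easily than one high in glial cells. *Adm*, *Vegfa*, *Hk2* and *Slc16a3* met it only through their stromal UMIs. *Hk2* was 28.7-fold (log2 ratio 4.85, 4.10 to 5.72) and 17.2-fold higher (4.10, 3.64 to 4.61). *Adm* was 48.5-fold (5.60, 3.74 to 8.65; 2 glial UMIs) and 13-fold higher (3.71, 2.57 to 5.16; 6 glial UMIs), and *Vegfa* 40.2-fold (4 glial UMIs) and 5.12-fold (22 glial UMIs, 9 of them in 1 cell). The other stromal excesses were modest: *Hif1a* was 2.17-fold and 3.32-fold higher, *Ldha* 2.10-fold and 2.26-fold and *P4ha1* 2.05-fold and 2.35-fold. *Slc16a3* rests on 1 and 2 glial UMIs, with an interval of the IgG ratio from -0.97 to 6.94.

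In the glial direction, *Pfkfb4* was 12.3-fold higher in glial than in stromal cells in IgG (log2 ratio -3.62, -4.02 to -3.22) and 11.5-fold in SPP1-nAb (-3.53, -3.95 to -3.11), and *Pfkp* 2.28-fold and 3.64-fold. With tenocytes left out of the stromal cells, an alternative added after seeing the data, the 7 were reduced to *Adm*, *Hk2*, *Vegfa* and *Hif1a*. Then 30 members were compared, and 15.1% of 11235 genes were higher. The shorter list is near that share and is not a result about the members. *Hif1a* had a log2 ratio of 0.78 in IgG without the tenth of cells with the most UMIs, so that its place in the list depends on the deepest cells. The member median was 0.24 and 0.59 against -0.23 and -0.25 over all genes, and 19 of 31 members lay above 0 in each library. Stress genes were 10535 and 8501 CPM in stromal cells against 5530 and 5376 in glial cells, and their part was not tested.

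Within a class, the libraries were compared gene by gene, and a member counted when it was at least 1.5-fold higher or lower in SPP1-nAb. With 1 library per condition, treatment and library cannot be told apart, and the intervals say nothing of the spread between mice. In inflammatory phagocytes 0 of 32 members were higher (background 3.19% of 9286 genes) and 1 was lower (background 3.37%). That was *Egln3*, at 3.48 against 6.62 CPM (log2 ratio -0.93, -1.44 to -0.42) on 71 and 63 UMIs. When *Arg1* and *Ptgs2* are left out of the markers, it has under 100 UMIs and is not compared. Its log2 ratio stayed between -1.09 and -0.79 over all alternatives. *Hif1a* had a log2 ratio of -0.01 (-0.04 to 0.03), *Ldha* 0.01 (-0.04 to 0.07), *Hk2* -0.01 (-0.09 to 0.07) and *Pgk1* 0.03 (-0.04 to 0.11), so that any library difference in these 4 within counting error is far from the limit. *Vegfa* was lower by less than the limit, with a log2 ratio of -0.40 (-0.46 to -0.33).

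In neutrophils 4 of 25 members were higher in SPP1-nAb (background 5.80% of 3567 genes) and 0 were lower (background 4.18%). *Mif* was 214 against 101 CPM (log2 ratio 1.08, 0.73 to 1.44), *Higd1a* 79.8 against 42.4 (0.91, 0.37 to 1.5), *P4ha1* 86.6 against 47.5 (0.87, 0.35 to 1.42) and *Hk3* 57.8 against 37.3 (0.63, 0.04 to 1.27). The lowest counts behind them were 79, 33, 37 and 29 UMIs in IgG. *Hk3* is not counted with each cell weighted equally (log2 ratio 0.41) or without the 10% of cells with the most UMIs (0.49). The transcripts that marked the class, *Slc2a3* (-0.02, -0.32 to 0.28), *Egln3* (-0.01, -0.41 to 0.41) and *Slc16a3* (-0.24, -0.42 to -0.06), lay under the limit. *Gapdh* (0.46, 0.32 to 0.61) and *Aldoa* (0.39, 0.17 to 0.62) were higher by less than the limit, and the neutrophil share of the cells kept was 2.28% in IgG and 4.92% in SPP1-nAb.

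Stromal cells held most of the differences. In SPP1-nAb 7 of 31 members were higher (background 4.86% of 11058 genes) and 2 were lower (background 6.12%). Of the glycolytic members, 3 were higher: *Slc16a3* at 6.43 against 2.48 CPM (log2 ratio 1.37, 0.78 to 1.99), *Pfkl* at 8.04 against 4.46 (0.85, 0.37 to 1.33) and *Slc2a1* at 19.3 against 10.8 (0.83, 0.53 to 1.14). Most glycolytic members were under the limit. Some were lower or level, such as *Pfkp* (-0.43), *Slc2a3* (-0.37), *Aldoa* (-0.07), *Hk1* (-0.01) and *Tpi1* (0.03). Others were higher, such as *Pkm* (0.50, 0.39 to 0.61), *Eno1* (0.38), *Hk2* (0.34) and *Ldha* (0.33). The median log2 ratio of the members was 0.21 against -0.01 over all genes, and 24 of 31 members had a ratio above 0. *Hif1a* was 380 against 234 CPM (0.70, 0.63 to 0.76), *Mif* 179 against 114 (0.66, 0.56 to 0.75), and *Ndrg1* (0.59, 0.49 to 0.69) and *Hilpda* (0.59, 0.29 to 0.88) were just past the limit. *Slc16a3* rests on 103 UMIs. It has under 100 and is not compared after free RNA is subtracted, with a lead of 3 markers or with each cell weighted equally. The same holds without tenocytes or without the 10% of cells with the most UMIs. Its log2 ratio stayed between 1.35 and 1.91 over all alternatives. *Hilpda* is under the limit with each cell weighted equally (0.46), after free RNA is subtracted and without the 10% of cells with the most UMIs. So it is with more than 500 genes, under 5% mitochondrial UMIs, or no mitochondrial and ribosomal protein genes. *Ndrg1* is under it with at least 2 markers, under 5% mitochondrial UMIs or without tenocytes (0.56). The 2 members that were lower were *Vegfa*, at 74.5 against 132 CPM (-0.83, -0.95 to -0.71), and *Adm*, at 51.8 against 79.7 (-0.62, -0.77 to -0.47). *Ddit4* (0.58) and *Pfkfb3* (0.54) were just under the limit.

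The stromal class itself was smaller and deeper in SPP1-nAb, with 1365 against 2967 cells and a median of 7196 against 4802 UMIs. Tenocytes were 296 of 1365 against 388 of 2967 cells. With tenocytes left out, *Hif1a*, *Hilpda*, *Mif*, *Pfkl* and *Slc2a1* were still higher and *Vegfa* and *Adm* still lower. *Ndrg1* and *Slc16a3* were then not counted, and *Ddit4* and *Pfkfb3* were. The part of other differences in make-up and depth was not tested. Without tenocytes *Hif1a* was 400 against 225 CPM and *Vegfa* 80.9 against 143, and within tenocytes *Hif1a* was 275 against 304 and *Vegfa* 40.4 against 44.2. In glial cells 0 of 15 members were higher (background 1.70% of 4706 genes) and 0 were lower (background 2.00%), and the other 20 members were under 100 UMIs there. *Vegfa*, with 22 UMIs against 4, was among these. For *Pfkfb4* the log2 ratio was 0.08 (-0.30 to 0.46), for *Pfkp* 0.24 (-0.04 to 0.52) and for *Ndrg1* 0.01 (-0.25 to 0.28).

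**Figure D5:**
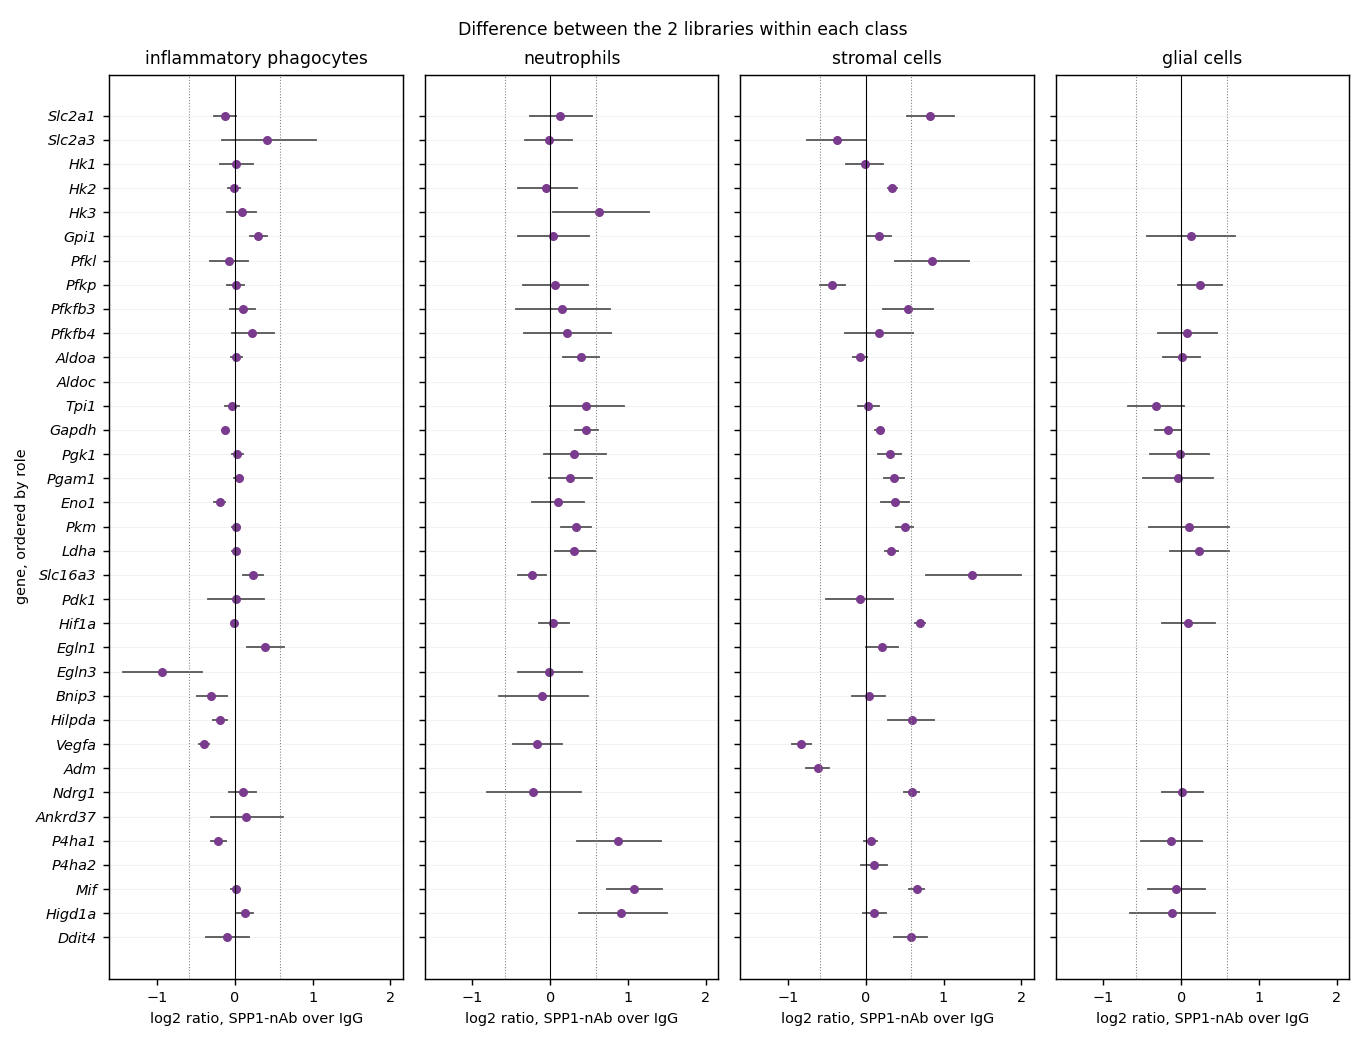
Log2 ratio of SPP1-nAb to IgG for each member with at least 100 UMIs (points with 95% binomial intervals) in 4 classes, with dotted lines at 1.5-fold. In stromal cells 7 members lie above the upper and 2 (*Vegfa*, *Adm*) below the lower line, and in glial cells all 15 points lie between the lines.

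Other genes of the pathways, from wider lists, were counted in the inflammatory phagocytes about as often as genes at large, of which 0.806% were higher and 6.04% lower. Of 15 other glycolysis genes compared 0 were higher and 1 was lower, *Pgam2*, the muscle phosphoglycerate mutase (3.83-fold and 3.61-fold, on 5 and 6 UMIs in the inflammatory cells), and of 21 other hypoxia genes 0 were higher and 1 was lower, *Angptl4*, an inhibitor of lipoprotein lipase. Their medians were 0.03 and -0.07, against 0.58 for the members and -0.18 over all genes. Of 7 pentose phosphate genes and 21 genes of the tricarboxylic acid cycle and respiratory chain 0 passed the limit (medians 0.32 and 0.11).

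In neutrophils, where 9.75% of all genes were higher and 19.2% lower, 2 of 15 other glycolysis genes were higher and 2 lower. *Pygl*, the glycogen phosphorylase of liver and leukocytes, was 10.6-fold and 7.65-fold higher and the transporter *Slc2a6* 6.98-fold and 7.64-fold higher, while the lactate transporter *Slc16a1* and the enolase *Eno2* were lower. Of 21 other hypoxia genes 1 was higher, *Bhlhe40* (2.48-fold and 2.49-fold), and 2 were lower, *Hmox1* and *Plod1*. Of 7 pentose phosphate genes 1 was higher, *Taldo1* (3.22-fold and 2.42-fold), and 1 was lower, *Pgls*. Of the 21 mitochondrial genes 5 were lower, among them *Idh3a* (4.42-fold and 2.93-fold), *Fh1* (3.18-fold and 2.24-fold) and *Atp5a1* (2.44-fold and 2.67-fold), and 0 were higher, with a list median of -0.74 against -0.43 over all genes. These shares of lower genes are near the background and are not a result about the lists.

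Stromal cells exceeded glial cells at 8 of 20 other hypoxia genes and were lower at 0, where 15.0% of all genes were higher and 12.3% lower, with *Lox*, which cross-links collagen, 64.7-fold and 243-fold higher (on 6 and 4 glial UMIs) and *Angptl4* 20.6-fold and 23.6-fold higher (on 2 and 5). Here too the minimum count was met more easily by genes high in stromal cells. Of 12 other glycolysis genes 3 were higher, *Pygl*, *Slc16a1* and *Pgm1*, and 1 was lower, *Ldhb*, the dehydrogenase subunit of oxidative tissue (16.0-fold and 19.8-fold). Between libraries, stromal cells had 4 of 19 other hypoxia genes higher in SPP1-nAb (background 4.86%), with *Hmox1*, the heme oxygenase, at a log2 ratio of 1.51, *Angptl4* at 1.20 and *Lox* at 1.01, and 3 lower (background 6.12%), *Pgf* (-1.17), *Edn1* (-0.97) and *Txnip* (-0.60). *Hmox1* was also higher in SPP1-nAb in inflammatory phagocytes (1.11) and neutrophils (1.41), and *Edn1*, the vasoconstrictor endothelin, was lower in inflammatory phagocytes (-1.61).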

How the data were processed

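Single-cell suspensions of 2 libraries, IgG and SPP1-nAb, were compared. The authors deposited counts of UMIs per gene and barcode after CellRanger's own choice of barcodes, as whole numbers without normalization. The labels name Cell Ranger 8.0.0 and GRCm39, the matrix headers 9.0.1, and the methods also GRCm38. The removal of ambient RNA and doublets by the authors came after these counts and is not in them. Muscles are TA and GTN in the labels and TA in the injection methods.

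Counts were analysed with Python 3.11.15, numpy 2.4.6, scipy 1.17.1 and pandas 2.3.3. Cells were classed by marker counts per cell (at least 3 of 8, a lead of 2), and subclasses by at least 3 of 8 markers and more than of any other subclass. Cells with markers of several lineages were set aside as mixed, and no doublet caller was run. Artificial mixes of 2 cells showed that this rule leaves out a part of them only. UMIs were summed per gene, class and library. Levels are CPM with exact Poisson intervals, ratios have exact binomial and shares Clopper-Pearson intervals, and a level of 0 has a floor of 3 counts. Cells are not replicates, so there is no test and no p-value. The ratio step was tested on simulated data. Depth sets precision: a class of few UMIs, such as glial cells, has wide intervals.

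Genes needed at least 100 UMIs over the cells compared. All members are accounted for. Up to 7 members per comparison and direction, every isozyme member, and up to 3 genes per direction of the other lists were named by size. The members and lists were chosen with earlier results of these data known. *Ero1a* was matched as *Ero1l*, and the list of the cycle and respiratory chain had 21 genes. Coordinates of genes and promoters are on different builds and were not combined. Alternatives changed the gate, filters, scaling, minimum count, free RNA, deepest cells and tenocytes. Left out were lymphocytes as a class for comparison, with 39 and 66 cells.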

Additional observations from a re-analysis of the deposited data

How the results depend on the processing

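Over 14 alternatives, 643 of 706 values of counted members moved by less than their interval, 63 moved further and 0 turned direction, and 164 of 176 numbers of members counted stayed within 1.5 times. The alternatives of the minimum count changed only which genes were compared, so their ratios could not move and count among the 643. Only members already past the fold were followed, which makes a turn of direction unlikely beforehand. With ratios centred on the median of all genes, 0 members were lower in neutrophils (background 10.9%) and 1 in stromal against glial cells (background 8.65%). With each cell weighted equally 0 were lower in neutrophils (background 25.5%). With a minimum of 30 UMIs 1 of 35 members (*Adm*) was lower in inflammatory phagocytes (background 7.13%). In SPP1-nAb glial cells 3 of 24 (*Hk2*, *Slc2a1*, *Slc2a3*) were then higher (background 5.55%). With no minimum, 1 of 35 was lower in inflammatory phagocytes (background 6.60%). In SPP1-nAb glial cells 6 of 31 were then higher (background 14.0%) and 1 lower (14.6%). In SPP1-nAb neutrophils 1 of 33 was lower (background 19.1%). Here fewer UMIs are behind each added value. Without *Arg1* and *Ptgs2* in the gate 3 of 34 members were higher in inflammatory phagocytes (*Vegfa*, *Slc16a3*, *Hif1a*), where 0.821% of all genes were. In SPP1-nAb against IgG 0 were then lower (background 3.69%), with *Egln3* under the minimum count. Without tenocytes, chosen after seeing the data, 4 of 30 were higher in stromal than in glial cells, where 15.1% of all genes were. The cause of these changes was not tested further.

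The median log2 ratio of all genes was -0.18, -0.43 and -0.24 in the 3 class comparisons (inflammatory, neutrophil, stromal) and -0.00, -0.03 and -0.00 after centring. In stromal against glial cells it turned 15.0% higher and 12.3% lower into 18.1% and 8.65%. In SPP1-nAb against IgG inflammatory phagocytes it turned 3.19% and 3.37% into 2.30% and 4.25%. *P4ha1* in stromal against glial cells was 0.75 in IgG with each cell weighted equally, under the limit.

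No paired analysis was possible because each condition is 1 library, and for the same reason there was no replicate to leave out. Glial *Vegfa*, *Hk2* and *Adm* were under 100 UMIs and so were not compared between libraries in the main setting. Their log2 ratios were 2.15 (0.59 to 4.14, on 22 against 4 UMIs), 1.09 (0.17 to 2.09, on 37 against 14) and 1.27 (-1.21 to 4.61, on 6 against 2). Neutrophil shares at 2000 UMIs are not given because few cells are that deep.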

Other observations

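Over 12 disjoint classes, 29 of the 35 members had the same highest class in both libraries, and classes outside the 4 compared held several of them. Mural cells, the pericytes and smooth muscle cells of vessels, were highest for *Ddit4* (130 and 166 CPM in IgG and SPP1-nAb), *Aldoa* (352 and 397) and *Gpi1*. Endothelial cells were highest for *Egln1* (81.7 and 75.7), *Pdk1* (31.0 and 25.2) and *Ndrg1* (189 and 183), although their *Vegfa* level was 15.5 and 31.9 CPM. Dendritic cells were highest for *Pfkp* (293 and 280), tenocytes for *P4ha1* (285 in each library), resident macrophages for *Pfkfb3* (94.7 and 120) and lipid-handling phagocytes for *Hk3* (56.7 and 61.2). Myogenic cells had 969 and 1378 CPM of *Gapdh* and 7.60 and 10.8 of *Hilpda*. These levels rest on 119 to 167 mural and 343 to 404 endothelial cells and were not compared between libraries.

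Transcripts of the tricarboxylic acid cycle and respiratory chain, 21 genes together, varied less across the classes than the glycolytic enzymes did. They summed to 3141 and 3413 CPM in inflammatory phagocytes, 2812 and 3285 in all other mononuclear phagocytes, 2590 and 2613 in glial cells, 2150 and 2175 in stromal cells and 2052 and 2165 in neutrophils. Glial cells thus stood above stromal cells for this sum as for the 10 enzymes, and below them for the hexokinases (40.3 and 60.9 against 358 and 448 CPM).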
